A study of Mus musculus with 10 samples.

Results

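Immediate early genes are transcribed within minutes of a stimulus, before any new protein is made. A set of 10 of them were followed here: the AP-1 genes Fos, Fosb, Jun and Junb, the related factor Atf3, the zinc finger factor Egr1, the orphan nuclear receptor Nr4a1, and Ier2, Dusp1 and Btg2. They were chosen by name, as genes that respond to stimuli and to tissue handling, and were matched by symbol to 10 of the 15341 genes in the count table. All 10 passed the filter on low counts and were among the 12992 genes tested.

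RNA was sequenced from the hearts of male mice, 5 called plasma S1Pless and 5 littermate controls. S1P stands for sphingosine 1-phosphate, a lipid messenger of the blood that is made by the sphingosine kinases Sphk1 and Sphk2. Both groups carried a floxed over a null allele of both kinase genes; the control genotype was Sphk1f/-:Sphk2f/-:Mx1Cre- and the S1Pless genotype Sphk1f/-:Sphk2f/-:Mx1Cre+. In Mx1Cre the recombinase Cre is driven by the Mx1 promoter, which interferon switches on, in blood-forming cells among others. Any effect of the recombinase itself cannot be told apart from an effect of kinase loss, since no group carried it without floxed alleles. No age, way of inducing Cre or way of handling the tissue is given in the sources used here. Each library has a title number of its own. Nothing in the labels says what the numbers stand for, so p-values measure the spread between these samples.

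As background, most of these genes sit downstream of the MAP kinase ERK and of calcium and cyclic AMP. These signals act on serum response factor with its ternary complex partners, and on CREB, which are already bound or ready in the resting cell. The transcripts are unstable, and several of the products shut the response down again: Dusp1 removes phosphate from MAP kinases, Atf3 can repress transcription, and Btg2 is an antiproliferative factor tied to mRNA decay. In heart muscle they are known to respond to stretch, adrenergic agonists, ischaemia and surgical handling. Because whole hearts were used, a change in the number of cells of a type and a change in RNA per cell cannot be told apart.

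The members share promoter features that the choice by name did not use. RefSeq promoter sequences of build GRCm38.p6 were matched by symbol for 8 members: Fos, Fosb, Jun, Junb, Atf3, Nr4a1, Dusp1 and Btg2. In the 250 bases before the annotated start, TGACG, the core of the cyclic AMP response element to which CREB binds, was present on either strand in 7 of these 8, all but Jun. It was present in 17.8% of the 32851 promoters in the RefSeq table. The members' windows were also rich in G and C, from 58.4% in Fos to 74.4% in Nr4a1, against a median of 52.4% over all promoters. The shares over all promoters were not matched for G and C, so the part of base content in the matches was not tested. The full palindrome TGACGTCA was found in Dusp1 and Btg2 and in 1.55% of all promoters. A match is a description of the letters and does not show that a factor binds. Shown here are 5 windows, 5′ to 3′ in the direction of transcription and ending at the base before the annotated start. Fos and Fosb are the pair whose levels parted in control replicate 4, Nr4a1 has 4 matches, and Dusp1 and Btg2 carry the palindrome; capitals mark every TGACG or its reverse complement.
Fos, chr12:85473640-85473889, plus strand: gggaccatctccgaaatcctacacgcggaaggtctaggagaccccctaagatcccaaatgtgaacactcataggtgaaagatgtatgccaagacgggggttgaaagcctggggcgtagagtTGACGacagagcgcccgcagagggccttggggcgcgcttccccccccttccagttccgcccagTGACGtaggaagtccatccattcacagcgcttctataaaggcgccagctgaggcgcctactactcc
Fosb, chr7:19310046-19310295, minus strand: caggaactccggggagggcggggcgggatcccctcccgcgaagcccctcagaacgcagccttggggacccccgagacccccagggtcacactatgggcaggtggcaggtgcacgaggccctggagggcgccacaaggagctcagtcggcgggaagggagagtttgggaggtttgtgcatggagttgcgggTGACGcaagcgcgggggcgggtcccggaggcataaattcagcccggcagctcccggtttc
Nr4a1, chr15:101266596-101266845, plus strand: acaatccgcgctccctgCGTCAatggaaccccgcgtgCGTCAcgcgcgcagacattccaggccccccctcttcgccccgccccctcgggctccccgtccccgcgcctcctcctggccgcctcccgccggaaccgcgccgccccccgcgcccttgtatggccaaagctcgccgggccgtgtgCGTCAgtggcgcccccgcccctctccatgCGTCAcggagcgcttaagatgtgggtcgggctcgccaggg
Dusp1, chr17:26508473-26508722, minus strand: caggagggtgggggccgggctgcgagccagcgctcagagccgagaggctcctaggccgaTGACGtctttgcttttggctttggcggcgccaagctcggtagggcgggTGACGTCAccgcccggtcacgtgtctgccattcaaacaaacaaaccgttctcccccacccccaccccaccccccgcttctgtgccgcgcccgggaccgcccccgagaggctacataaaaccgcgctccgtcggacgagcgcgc
Btg2, chr1:134079156-134079405, minus strand: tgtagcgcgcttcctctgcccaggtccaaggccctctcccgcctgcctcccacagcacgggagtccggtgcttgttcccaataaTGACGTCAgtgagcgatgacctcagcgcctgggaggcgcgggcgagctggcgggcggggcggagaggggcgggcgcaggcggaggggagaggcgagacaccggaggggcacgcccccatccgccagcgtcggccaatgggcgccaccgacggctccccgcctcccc

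Of the other motifs searched on both strands in the same windows, GCGNGGGCG, to which EGR factors bind, was found in Fosb, Nr4a1 and Btg2 and in 4.70% of all promoters. CCAAT was found in Jun, Junb and Btg2 and in 33.8% of all promoters. TATAAA was found in Fos alone (12.4% of all promoters) and the ETS core CCGGAA in Nr4a1 alone (12.03%). The AP-1 site TGACTCA (4.46%) and the CArG box of serum response factor (1.47%) were in none of the 8 windows. The letters of TGACG lie within TGACGTCA, so these searches overlap.

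The libraries held 16354071 to 20832566 counts, and a single read was worth 0.0451 to 0.0658 CPM (the usual depth-scaled count, with library totals adjusted here by TMM factors). Of 18 library measures compared with two-sided exact permutation tests, none passed after Benjamini-Hochberg adjustment. Unadjusted p-values were below 0.05 in 4, each higher in S1Pless hearts (adjusted p = 0.0714 for each). These were the TMM factor and the summed CPM of fibroblast, macrophage and mast cell markers. With 252 arrangements this test can give no p below 0.00794. The macrophage and mast cell sums, whose groups did not overlap, were at that limit, so their not passing says little. Kit made up most of the mast cell sum (3.83 to 15.2 CPM). Cpa3, Cma1 and Tpsb2 never exceeded 1.28 CPM and were each highest in control replicate 3. The cardiomyocyte markers summed to 45177 to 54393 CPM in the control and 38172 to 48702 CPM in the S1Pless group, and all 6 were detected in every heart. The high heart described next, control replicate 4, held 18595126 counts. It had neither the highest nor the lowest depth, TMM factor, haemoglobin share or mitochondrial share, and none of the 14 summed marker lists was highest in it. Smooth muscle markers (132.6 CPM, against 133.8 to 258.4 CPM in the other 9 hearts) and macrophage markers (87.2 CPM, against 92.2 to 299 CPM) were lowest in it; their part in its values was not tested.

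None of the 10 immediate early genes passed the test between S1Pless and control hearts. The groups overlapped in all 10, while over all genes 6.35% did not overlap, 4.53% higher and 1.82% lower. The lowest adjusted p was 0.219, for Dusp1 (quasi-likelihood test of edgeR, adjusted by Benjamini-Hochberg over all 12992 genes). Over all genes tested 3.72% were called, 3.4% higher and 0.316% lower in S1Pless hearts, so a count of 0 among 10 is near that background. One member had an unadjusted p below 0.05, against 19.9% of all genes. DESeq2 and limma-voom called no member either. The log2 fold changes were negative in 7 members and positive in 3 with TMM factors, and negative in 3 and positive in 7 with library totals alone. Their median was -0.08, against -0.01 over all genes tested.

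The high values of most members came from the same control heart. Control replicate 4 was the highest of the 10 hearts in 9 of the 10 members, all but Fosb, and in 8 of 10 with library totals alone. Over all genes tested 7.41% were highest in that heart. This heart was known to be high when the genes were chosen, so its height is described and not tested.

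**Figure D1:**
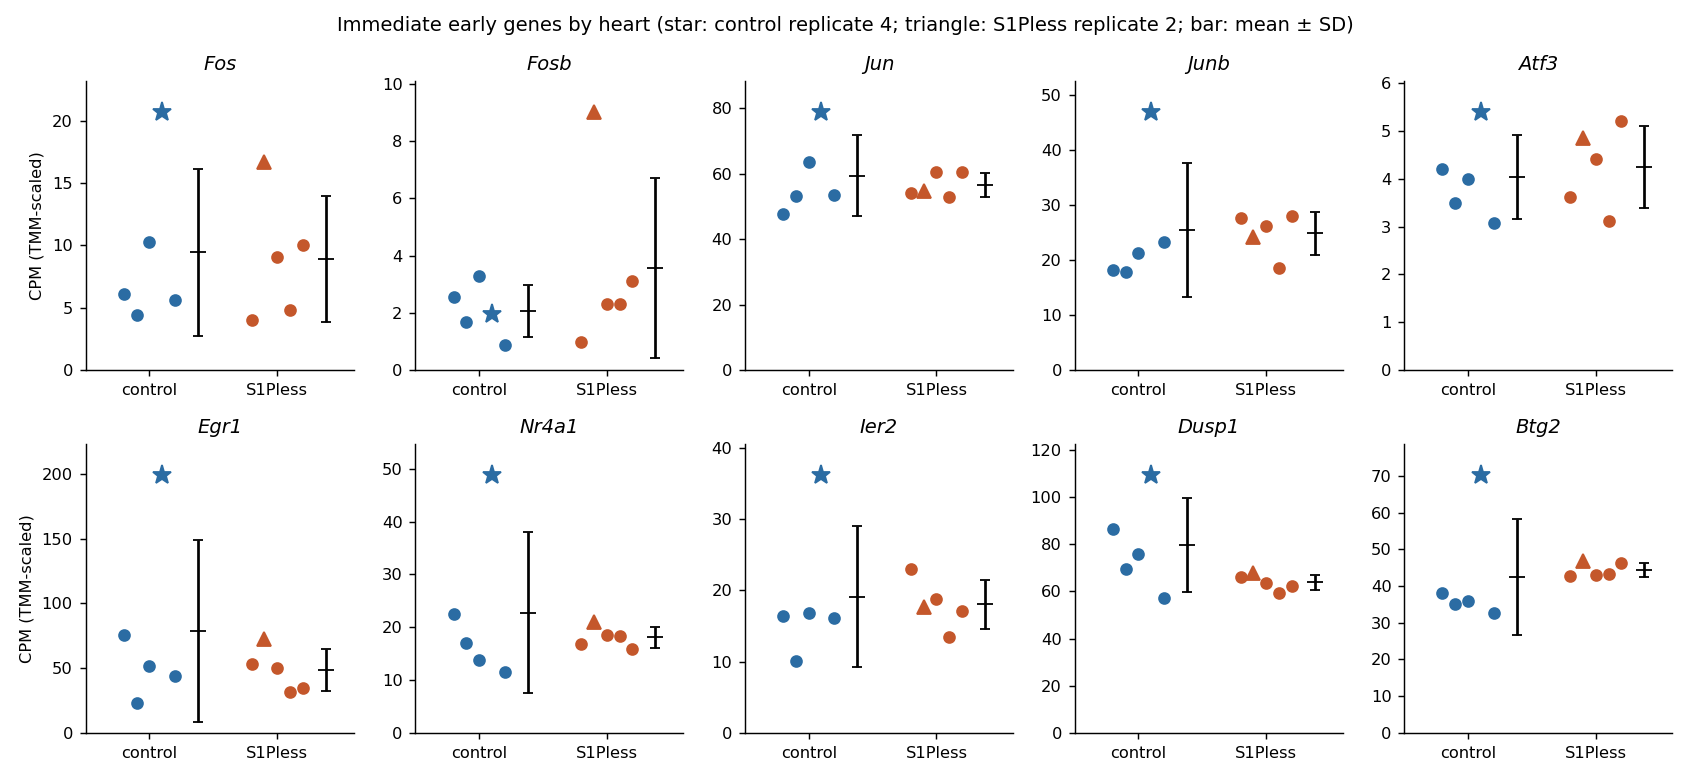
Level of each immediate early gene in CPM scaled by TMM factors (y axis, from 0) in the 5 control hearts (blue) and the 5 S1Pless hearts (orange), with the mean ± SD as black bars. The star, control replicate 4, is the highest point in every panel but Fosb, where the triangle, S1Pless replicate 2, reaches 9.01 CPM.

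The AP-1 factors bind DNA as pairs of a Fos-type with a Jun-type protein. Fos was at 6.12, 4.46, 10.3, 20.7 and 5.64 CPM in control replicates 1 to 5 and at 4.06, 16.7, 9.05, 4.79 and 10.0 CPM in S1Pless replicates 1 to 5. One heart of each group thus stood high, control replicate 4 and S1Pless replicate 2, and the groups overlapped across nearly their whole range. The log2 fold change was -0.09 ± 0.48 (SE, adjusted p = 0.941), with a 95% interval of the fold from 0.440 to 2.01. That interval gives the fold changes of Fos that remain compatible with these hearts, and is not a limit of detection.

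Fosb, which encodes the close relative of Fos that also gives rise to the long-lived splice form deltaFosB, was the least abundant member, with 16 to 180 reads per library. It was at 2.57, 1.67, 3.30, 1.96 and 0.894 CPM in control replicates 1 to 5 and at 0.993, 9.01, 2.32, 2.32 and 3.13 CPM in S1Pless replicates 1 to 5. The S1Pless group was high through replicate 2 alone. Its log2 fold change of 0.77 ± 0.50 (adjusted p = 0.422) became 0.07 ± 0.37 (adjusted p = 0.935) without that heart.

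Fos and Fosb stood high together in S1Pless replicate 2, where they ranked 2 and 1 of the 10 hearts, and apart in control replicate 4, where they ranked 1 and 7. Control replicate 4 had 36 Fosb reads beside 380 Fos reads, or 9.47 Fosb reads per 100 Fos reads, the lowest ratio of the 10 hearts. S1Pless replicate 2 had 180 beside 334, or 53.9 per 100, the highest ratio. The other 8 hearts lay between 15.8 and 48.4 per 100. This ratio is taken within a library and does not depend on the scaling between libraries.

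Junb, a Jun-type partner that is itself strongly inducible, was at 18.3, 17.8, 21.2, 47.0 and 23.3 CPM in control replicates 1 to 5. In S1Pless replicates 1 to 5 it was at 27.6, 24.2, 26.2, 18.5 and 28.1 CPM. Control replicate 4 held 2.02 times the median of the other 9 hearts, and 4 of the 5 S1Pless hearts lay above the other controls. The log2 fold change was -0.04 ± 0.24 with all hearts (adjusted p = 0.954) and 0.30 ± 0.13 without control replicate 4 (adjusted p = 0.265).

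Jun encodes a Jun-type subunit and Atf3 a stress-induced factor of the ATF family. They had the lowest SD of log2 CPM of the transcription factors among the 5 controls, at 0.28 and 0.30. For Atf3 this did not hold among S1Pless hearts, where its SD was 0.30 and those of Nr4a1 and Junb were 0.16 and 0.25, or without control replicate 4, where it was 0.20 and that of Junb 0.18. Jun ran from 47.6 to 78.9 CPM among control hearts and from 53.1 to 60.5 CPM in S1Pless hearts, a log2 fold change of -0.07 ± 0.12 (adjusted p = 0.789). Atf3 ran from 3.07 to 5.39 CPM among control hearts and from 3.12 to 5.21 CPM in S1Pless hearts, a log2 fold change of 0.07 ± 0.19 (adjusted p = 0.865). Control replicate 4 was highest in both, at 1.46 and 1.35 times the median of the other 9 hearts. The 95% interval of the fold was 0.783 to 1.16 for Jun and 0.782 to 1.42 for Atf3.

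Egr1, a zinc finger factor that turns on growth and matrix genes, showed the widest range of the 10 in CPM, while Fosb did on the log2 scale. It was at 75.9, 22.7, 52.0, 199 and 43.8 CPM in control replicates 1 to 5 and at 53.1, 72.9, 50.4, 32.0 and 35.0 CPM in S1Pless replicates 1 to 5. Control replicate 4, with 3662 Egr1 reads, held 3.96 times the median of the other 9 hearts and 2.63 times the next highest. Controls had a mean of 78.8 ± 70.1 CPM, and S1Pless hearts one of 48.7 ± 16.4 CPM (SD, n = 5 each). The log2 fold change of -0.69 ± 0.52 (adjusted p = 0.501) became 0.00 ± 0.32 without control replicate 4, where the control mean was 48.6 ± 21.98 CPM (n = 4).

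Nr4a1, which encodes the orphan nuclear receptor Nur77, was at 22.6, 17.04, 13.8, 48.9 and 11.6 CPM in control replicates 1 to 5. In S1Pless replicates 1 to 5 it was at 16.7, 21.1, 18.6, 18.2 and 15.8 CPM. Control replicate 4 stood at 2.17 times the next highest heart, and the S1Pless values all lay within the range of the other 4 controls. The log2 fold change was -0.33 ± 0.33 (adjusted p = 0.618) with all hearts and 0.16 ± 0.17 (adjusted p = 0.660) without control replicate 4.

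Ier2, a small nuclear protein induced with the AP-1 genes, was at 16.4, 10.1, 16.9, 36.2 and 16.1 CPM in control replicates 1 to 5. It was at 23.1, 17.7, 18.7, 13.4 and 17.2 CPM in S1Pless replicates 1 to 5. Control replicate 4 held 2.15 times the median of the other hearts. Its log2 fold change was -0.09 ± 0.27 (adjusted p = 0.896).

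Dusp1, the MAP kinase phosphatase MKP-1 that ends the signal upstream of the other genes, had the lowest p of the 10. It was at 86.4, 69.3, 75.9, 109 and 57.2 CPM in control replicates 1 to 5 and at 65.9, 67.7, 63.5, 59.4 and 62.2 CPM in S1Pless replicates 1 to 5. The S1Pless hearts lay close together in the lower part of the control range, below 4 of the 5 controls, and above the lowest one, control replicate 5. The log2 fold change was -0.32 ± 0.14, with an unadjusted p of 0.0375 and an adjusted p of 0.219. The 95% interval of the fold ran from 0.641 to 1.0005 and so just includes 1. It uses the residual degrees of freedom alone, which the p does not, so the interval and the p can differ at this edge. Without control replicate 4 it was -0.18 ± 0.11 (adjusted p = 0.440), and over all alternatives the adjusted p ran from 0.0951 to 0.607.

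Btg2 was at 38.2, 35.0, 35.9, 70.3 and 32.7 CPM in control replicates 1 to 5 and at 42.8, 46.9, 43.1, 43.2 and 46.2 CPM in S1Pless replicates 1 to 5. Without control replicate 4 every S1Pless heart lay above every control, the only member for which the groups then separated. Over all genes tested 7.31% separated without that heart, 5% higher and 2.32% lower. With all hearts its log2 fold change was 0.07 ± 0.18 (adjusted p = 0.872). It was 0.33 ± 0.08, a 1.25-fold difference, without control replicate 4 (unadjusted p = 0.00167, adjusted p = 0.0742), which did not pass. Control replicate 4 was the highest heart for Btg2 and was known to be high beforehand. Leaving it out was bound to make separation in this direction easier, so neither the separation nor these p-values are support for a difference.

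**Figure D2:**
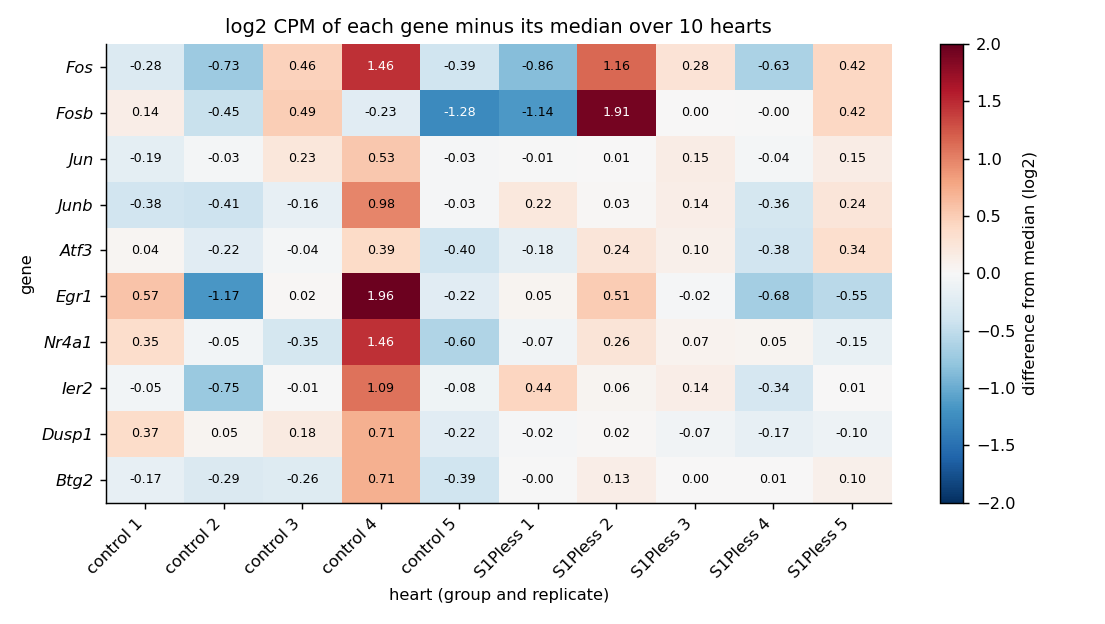
Each cell gives a gene's log2 CPM in 1 heart minus that gene's median over the 10 hearts (rows: genes; columns: hearts; red above and blue below the median). The column of control replicate 4 reaches 1.96 in Egr1 but -0.23 in Fosb, whereas S1Pless replicate 2 reaches 1.91 in Fosb and 1.16 in Fos.

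Leaving out control replicate 4 turned the direction of 6 members. Fos, Jun, Junb, Egr1, Nr4a1 and Ier2 had negative log2 fold changes with all hearts and positive ones without it, so that 9 of 10 were then positive and only Dusp1 negative. The median over the 10 moved from -0.08 to 0.24, while the median over all genes tested stayed at -0.01. None of the 10 passed without that heart (lowest adjusted p = 0.0742), beside 0.999% of all genes, 0.931% higher and 0.0687% lower. Junb and Btg2 had unadjusted p-values below 0.05 there, against 17% of all genes. Control replicate 4 was the highest heart in 9 of the 10, so leaving it out was bound to raise their log2 fold changes. Only 7.41% of all genes were highest in it, so the values over all genes are no like yardstick for this shift.

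**Figure D3:**
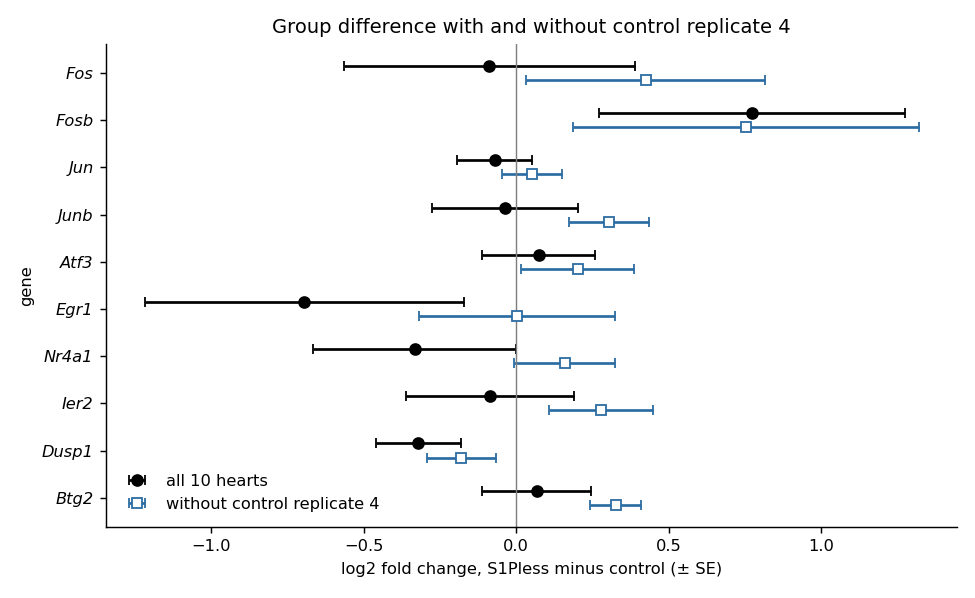
Log2 fold change of each gene, S1Pless minus control, with its SE as bars (x axis; 0 marks no difference), from all 10 hearts (filled circles) and without control replicate 4 (open squares). Egr1 moves from -0.69 to 0.00 and Btg2 from 0.07 to 0.33, and Fosb hardly moves.

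The hearts also differed as wholes. The mean over the 10 members of the log2 CPM, centred on each gene's median, was 0.91 in control replicate 4 and 0.43 in S1Pless replicate 2. It was lowest in control replicate 2 at -0.40 and control replicate 5 at -0.37, and between -0.25 and 0.09 in the other 6 hearts. In control replicate 5 none of the 10 members lay above its median and 5 had their lowest value, whereas 11.2% of all genes had their lowest value there. In S1Pless replicate 2 all 10 lay above their medians, against 49.8% of all genes. Both the highest and the lowest hearts for this set were therefore controls.

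The spread between hearts was wide for these genes, and uneven among them. The SD of log2 CPM among the 5 controls was above the 90th percentile of all genes in 7 members: Fos, Fosb, Junb, Egr1, Nr4a1, Ier2 and Btg2. The median SD of the members was 0.61 there and 0.26 in S1Pless hearts, against 0.20 and 0.18 over all genes. Among S1Pless hearts only Fos, Fosb and Egr1 were above the 90th percentile, and among controls without replicate 4 the same 3 genes were. Dusp1 and Btg2 were at the other end in S1Pless hearts, at the 6.01 and 3.90 percentiles, with SDs of 0.07 and 0.06. The control SD exceeded the S1Pless SD in 8 of 10 members and in 59.6% of all genes. Without control replicate 4 it did so in 6 of 10 and in 60.6% of all genes.

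**Figure D4:**
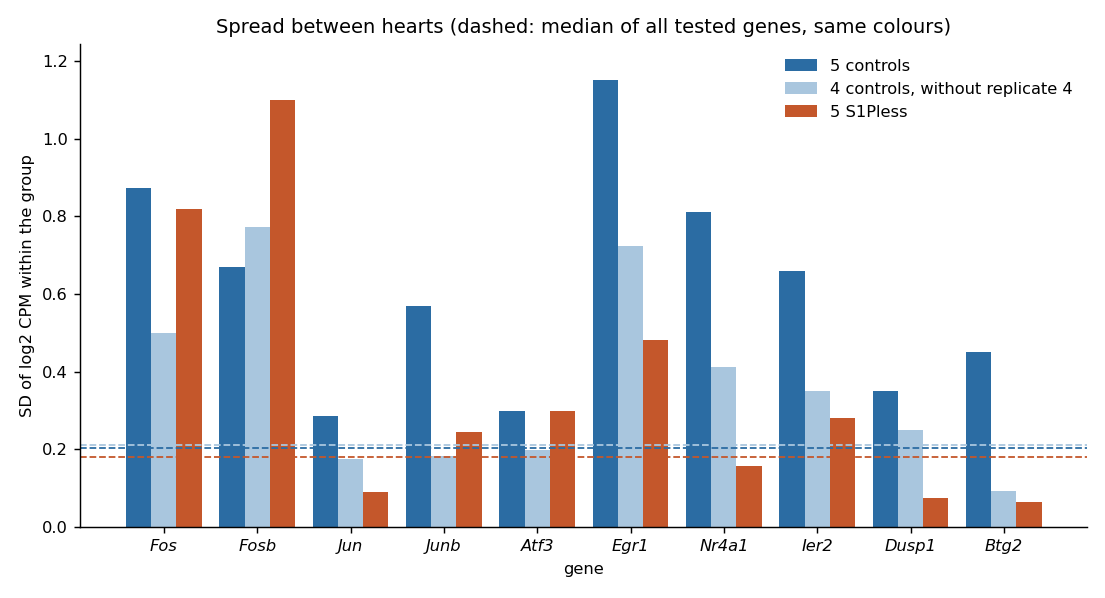
SD of log2 CPM between hearts for each gene (y axis, from 0) in the 5 controls, in the 4 controls without replicate 4, and in the 5 S1Pless hearts; dashed lines give the median of all tested genes. Egr1 falls from 1.15 to 0.72 and Btg2 from 0.45 to 0.09 without that heart, and Fosb is widest among S1Pless hearts at 1.10.

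Per kilobase of exon (union of GENCODE M21 exons, an annotation of an older build than the counts) the members spanned a wide range of levels. In controls the order was Dusp1 at 24.1 ± 5.96, Jun at 18.6 ± 3.88, Egr1 at 17.6 ± 15.6, Btg2 at 15.5 ± 5.73, Ier2 at 12.6 ± 6.53, Junb at 11.1 ± 5.30, Nr4a1 at 6.49 ± 4.32, Fos at 4.01 ± 2.83, Atf3 at 1.87 ± 0.408 and Fosb at 0.333 ± 0.146 CPM per kilobase (SD, n = 5). Dusp1 lay above Jun in 9 of 10 hearts, and Jun above Egr1, Ier2 above Junb and Nr4a1 above Fos in 8 of 10 each. Egr1 lay above Btg2 in only 2 of 10 hearts, so its place in the order of means came from control replicate 4. Btg2 above Ier2, Junb above Nr4a1, Fos above Atf3 and Atf3 above Fosb held in all 10.

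The other genes of these families did not follow control replicate 4 as a group. Of 41 other immediate early genes on a list of the same kind 39 were tested, and 5 were highest in that heart: Zfp36, Ccn1, Ppp1r15a, Sik1 and Errfi1, named here after their values were seen. S1Pless replicate 1 was the highest heart for 10 of the 39 (25.6%, beside 9.70% of all genes). S1Pless replicate 5 was so for 8 (20.5%, beside 16.1% of all genes). Errfi1, a feedback inhibitor of EGF receptors, was at 93.8 CPM in control replicate 4 against 17.6 to 52.3 CPM in the other 9 hearts. Ccn1, a matricellular protein gene, was at 134 CPM against 41.5 to 64.8 CPM.

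**Figure D5:**
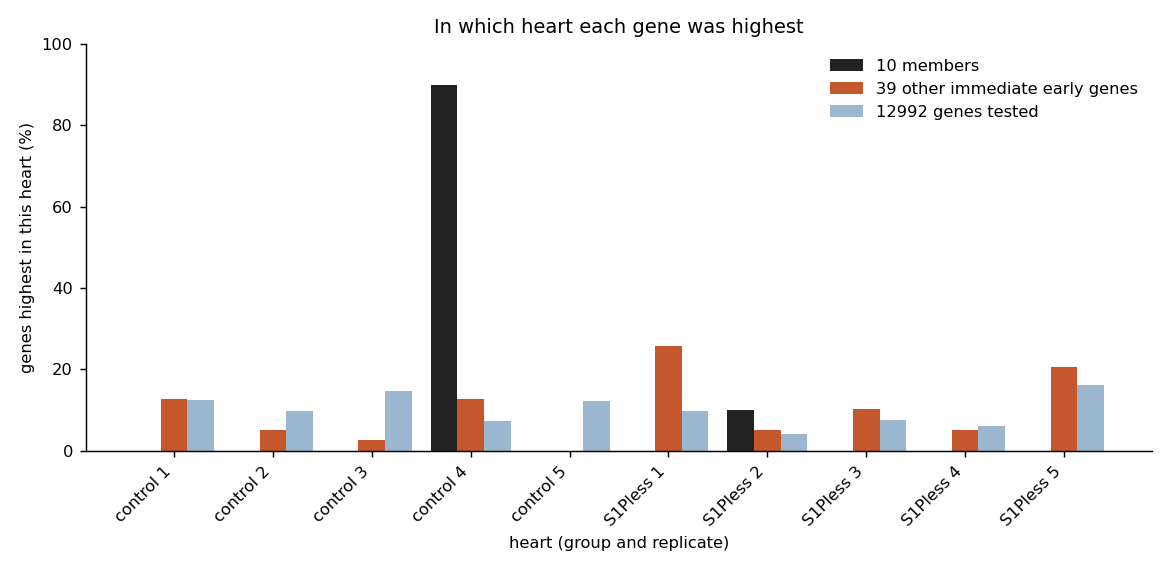
Share of genes (y axis, percent) that had their highest CPM in each heart (x axis), for the 10 members (black), the 39 other immediate early genes tested (orange) and all 12992 genes tested (pale blue). Control replicate 4 takes 90% of the members, 12.8% of the other immediate early genes and 7.41% of all genes.

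The EGR relatives showed the largest excess in control replicate 4. Egr2 was at 10.3 CPM there against 0.376 to 1.68 CPM in the other 9 hearts, 8.99 times their median. Egr3, named after its values were seen, was at 11.6 CPM against 1.25 to 2.80 CPM, 7.19 times their median. Both exceeded the 3.96-fold excess of Egr1. The NR4A relatives went another way: Nr4a3 was at 2.02 CPM in that heart, 0.472 times the median of the other 9. Nr4a2, named after its values were seen, was at 2.34 CPM, 0.780 times their median. None of the 6 tested genes of this list passed the test between the groups. Egr2 had a log2 fold change of -1.22 ± 0.77 (edgeR adjusted p = 0.415), which was 0.37 without control replicate 4, and Nr4a3 one of 0.43 ± 0.28 (adjusted p = 0.428).

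Among the other AP-1 family genes Batf and Batf3, factors of lymphoid and dendritic cells, rose in S1Pless hearts, 2 of 9 tested (background 3.4%), and none fell. Batf3 was at 0.699 ± 0.0594 CPM in control and 1.67 ± 0.499 CPM in S1Pless samples (2.37-fold, edgeR adjusted p = 0.0201). Batf was at 0.414 ± 0.111 and 0.967 ± 0.340 CPM (2.32-fold, adjusted p = 0.0486). The groups did not overlap in either. The filter on low counts stood at 0.532 CPM (before TMM), which 1 of 5 controls and 5 of 5 S1Pless hearts reached for Batf. Batf therefore entered the test mainly through the group in which it was higher, and the count of 2 is no support for a change of the list; all 10 hearts reached the filter for Batf3. The macrophage markers given with the induced genes were also higher in S1Pless hearts, and their part in these rises was not tested. Batf3 lost its call without control replicate 3 or 4 (adjusted p = 0.0574 and 0.0544), and Batf without any single heart but S1Pless replicate 4.

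Signals upstream of the members were counted next. Of 21 tested genes of the MAP kinase cascade 1 rose (4.76%, beside 3.72% of all genes): Rps6ka1, which encodes the ERK-activated kinase RSK1 (8.17 ± 0.785 to 12.1 ± 2.52 CPM, 1.49-fold, edgeR adjusted p = 0.0315), and the list's median log2 fold change was -0.11. Rps6ka1 no longer passed when control replicate 2, 3, 4 or 5, S1Pless replicate 1 or S1Pless replicate 5 was left out (adjusted p from 0.0509 to 0.0822). Of 15 factors of the serum response, MRTF and CREB group none passed; Elk4 had a log2 fold change of 0.24 ± 0.08 (adjusted p = 0.120) and the cyclic AMP-responsive Crem 0.37 ± 0.12 (adjusted p = 0.102). Of 16 MAP kinase phosphatases and Sprouty-type inhibitors none passed either. Dusp10 had a log2 fold change of -0.42 ± 0.13 (adjusted p = 0.0905) and Spry4 of -0.37 ± 0.11 (adjusted p = 0.0856).

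Of the 39 other immediate early genes none passed, and 27 had positive log2 fold changes. The list's median was 0.18, against -0.01 over all genes tested. Unadjusted p-values were below 0.05 in 8 of the 39, or 20.5%, beside 19.9% of all genes. Irf1, an interferon-responsive factor, had a log2 fold change of 0.52 ± 0.15 (adjusted p = 0.0679), with no overlap between the groups, and Arc one of -0.59 ± 0.19 (adjusted p = 0.106). Library totals alone called 4 genes of this list and DESeq2 2.

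Genes that act on or after the early response were also counted. Of 15 tested genes that AP-1 or EGR1 is known to induce 3 rose (20%, beside 3.4% of all genes). The list's median log2 fold change was 0.66, against -0.01 over all genes tested. Tnf, an inflammatory cytokine, was at 0.231 ± 0.187 CPM in controls and 1.19 ± 0.426 CPM in the S1Pless group (4.99-fold, edgeR adjusted p = 0.0173). Icam1, a leukocyte adhesion molecule, rose 1.66-fold (adjusted p = 0.0177) and Hmox1, haem oxygenase, 2.13-fold (adjusted p = 0.0255). Icam1 lost its call without control replicate 3 or 4 (adjusted p = 0.0538 and 0.0527), and Hmox1 without control replicate 2, 3, 4 or 5 (0.0553 to 0.0724). Tnf passed when any 1 heart was left out. With neighbouring title numbers as a block none of the 3 passed (adjusted p = 0.108 for Tnf, 0.0812 for Icam1 and 0.190 for Hmox1). That block leaves control replicates 3 and 4 out of the group difference, since their level holds no S1Pless heart. The log2 fold changes were 2.26, 0.62 and 1.05 with the block, against 2.32, 0.73 and 1.09 without it. No control and all 5 S1Pless hearts reached the filter on low counts for Tnf, so it entered the test only through the group in which it was higher, and the count of 3 is no support for a change of the list. All 5 of 5 macrophage markers were also higher in the mean in S1Pless hearts and highest in S1Pless replicate 5 (16.1% of all genes were highest there). Of the 3 called genes only Hmox1 was highest in that heart, while Tnf and Icam1 were highest in S1Pless replicate 1. The macrophage markers summed to 87.2 to 105 CPM in the control group but 129 to 299 CPM in the S1Pless group. Of the 5, Csf1r and Mrc1 passed with all hearts (adjusted p = 0.0255 and 0.0326) and neither did without control replicate 4 (0.0700 and 0.0897). None of the 5 was at 0 in any heart, and their part in these rises was not tested.

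Of 16 factors that bind or degrade unstable transcripts 1 rose (6.25%, beside 3.4% of all genes). This was Pabpc1, the poly(A)-binding protein, by 1.29-fold (79.6 ± 4.30 to 103 ± 9.75 CPM, edgeR adjusted p = 0.0304). Pabpc1 no longer passed when control replicate 2, 3, 4 or 5, S1Pless replicate 3 or S1Pless replicate 5 was left out (adjusted p from 0.0568 to 0.0966). Of 10 glucocorticoid-induced genes and 10 heat shock genes, none passed. Fkbp5 and Per1 had log2 fold changes of 0.49 ± 0.19 (adjusted p = 0.168) and 0.31 ± 0.22 (adjusted p = 0.470). Hspe1 and Hspd1 had -0.35 ± 0.14 (adjusted p = 0.170) and -0.25 ± 0.11 (adjusted p = 0.230). The heat shock genes did not share the high heart: 6 of the 10 were highest in control replicate 2 and none in control replicate 4. Over all genes 9.81% were highest in control replicate 2 and 7.41% in control replicate 4. Of the glucocorticoid-induced genes 2 were highest in control replicate 4, Errfi1 and, named after its values were seen, Klf9.

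The genes whose pattern over the 10 hearts lay nearest to the mean of the members were sought among the 11987 other genes whose mean reached 1 CPM. The measure was the mean absolute difference of centred log2 CPM. The nearest 8 were Zfp36 at 0.178, Stum at 0.184, Otulin at 0.187, Negr1 at 0.191, Crybg1 at 0.193, Bbs7 at 0.194, Pyroxd2 at 0.199 and Lonrf1 at 0.199, against a median of 0.336 over these genes. Zfp36, which encodes the mRNA decay factor tristetraprolin and is itself an immediate early gene, was at 58.0 CPM in control replicate 4 against 26.8 to 42.9 CPM in the other hearts. None of the 8 passed the test between the groups (edgeR adjusted p from 0.211 to 0.956). Only 2 of the 8, Zfp36 among them, were in the nearest 8 by Pearson correlation, and 2 of the 8 were among the nearest without control replicate 4. The ranking thus depends on the measure and on the hearts used. Nearness by this measure does not mean a shared high heart. In control replicate 4 the centred log2 CPM was -0.0070 for Crybg1, -0.045 for Pyroxd2 and 0.091 for Otulin, against 0.91 for the mean of the members. The others of the 8 stood at 0.29 to 0.80.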

How the data were processed

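RNA from heart tissue was sequenced from libraries made with a stranded mRNA kit, per the labels' protocols. The authors deposited 1 table of raw counts, with Ensembl gene identifiers in its rows. Per the submitters' processing notes the tools were STAR 2.7.8a and featureCounts 2.0.1, and the build GRCm39. Neither annotation nor strand setting is given in the sources used here, so reads of overlapping genes cannot be told apart. Of 15341 identifiers 20 had no symbol in GENCODE M21.

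Groups follow the genotype labels; replicates are numbered in accession order. Counts were tested with edgeR 4.0.16 (R 4.3.3): filterByExpr with a minimum count of 10, TMM, robust glmQLFit, glmQLFTest, two-sided, with Benjamini-Hochberg adjustment and a threshold of 0.05. SEs are the log2 fold change over the root of F; intervals use 8 residual degrees of freedom. Log2 CPM has a prior count of 2. The test was checked on simulated counts that had the same spread for every gene and no high heart. That check does not cover genes as variable as Fos, Fosb or Egr1. Library measures were compared by exact permutation (scipy 1.17.1). All 20 pairs of libraries within a group differed beyond sampling noise (chi-square over its degrees of freedom at least 10.1).

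The members, lists and alternatives were chosen with earlier results of these data known. Named are the members, up to 4 called genes of each of 10 lists or else the 2 with the smallest p-values, and the 8 genes of nearest pattern. Named outside this rule, after their values were seen, are Egr3, Nr4a2, Klf9 and the 5 early genes highest in control replicate 4. Csrnp1, Npas4, Egr4, Map2k7 and Il6 were not analysed here, and Fosl1 did not pass the filter. Alternatives were RLE, upper-quartile or no factors, DESeq2 1.42.0, limma 3.58.1 (voom with quality weights), 2 other filters, 2 covariates from the title numbers, and leaving out each heart.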

Additional observations from a re-analysis of the deposited data

Results flagged for a closer look

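In each group of 5 hearts the gap between an extreme heart and its nearest neighbour was divided by the group's range and set against Dixon's critical value of 0.71, for 110 groups of values. It was exceeded 12 times, and chance alone would flag about 1 in 20 groups. Control replicate 4 was known to be high in these genes beforehand, so its values are listed as a description and are no test of its height.

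Of the 12, 4 fell on control replicate 4. Junb was at 47.0 CPM there against 17.8 to 23.3 CPM in the other controls, Ier2 at 36.2 against 10.1 to 16.9 CPM, Btg2 at 70.3 against 32.7 to 38.2 CPM, and Egr2 at 10.3 against 0.376 to 1.58 CPM. Fosb was at 9.01 CPM in S1Pless replicate 2 against 0.993 to 3.13 CPM in the other S1Pless hearts. Arc was lowest in that same heart, at 2.00 CPM against 2.55 to 2.77 CPM.

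In S1Pless replicate 5, Hmox1 was at 31.9 CPM against 12.5 to 14.2 CPM in the other S1Pless hearts, and Rps6ka1 at 16.6 against 10.4 to 11.5 CPM. The summed macrophage markers were at 299 CPM in that heart against 129 to 155 CPM. In S1Pless replicate 1, Nr4a3 was at 2.17 CPM against 4.27 to 4.70 CPM. The B cell markers of that heart summed to 3.38 CPM against 0.400 to 0.870 CPM, and the adipocyte markers to 0.767 against 0.0948 to 0.202 CPM. Both sums rest on few reads, as 1 read was worth 0.0451 to 0.0658 CPM. Control hearts reached 2.45 CPM for the B cell and 1.02 CPM for the adipocyte markers.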

How the results depend on the processing

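No member was called under any of the 19 alternatives (lowest adjusted p = 0.0742, without control replicate 4), and 2 members, Fosb and Dusp1, kept their sign in all of them. Library totals alone moved the median log2 fold change of all genes by 0.136. Of all genes, 442 were higher and 41 lower, which became 1420 and 13 with library totals, 764 and 264 with DESeq2, and 80 and 8 with neighbouring title numbers as a block; leaving out 1 heart gave 118 to 504 and 8 to 85. Called AP-1 relatives numbered 2, but 1 with RLE factors, without a filter or with the title series as covariate, 0 with a filter of 1 CPM or the block, and 0 to 2 without 1 heart. With library totals 4 other immediate early genes, 4 serum response and CREB factors, 1 MAP kinase phosphatase or Sprouty gene, 3 decay factors and 5 secondary targets were called; with DESeq2 these were 2, 1, 2, 2 and 5, and voom called 1 phosphatase or Sprouty gene. The block left 0 MAP kinase cascade genes, 0 decay factors and 0 secondary targets. Without 1 heart, calls ran from 0 to 1 among other immediate early genes, serum response and CREB factors, MAP kinase cascade genes, decay factors and glucocorticoid-induced genes, and from 1 to 3 among secondary targets.

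Log2 fold changes turned positive with library totals for Fos (0.030), Jun (0.062), Junb (0.093), Ier2 (0.045), Bbs7 (0.025), Negr1 (0.10) and Otulin (0.12), and with the title series for Fos (0.046), Negr1 (0.0093) and Otulin (0.028). They did so with the block for Fos (0.69), Jun (0.15), Junb (0.33), Egr1 (0.043), Nr4a1 (0.12), Ier2 (0.32), Egr2 (0.21), Negr1 (0.16), Otulin (0.099), Stum (0.079) and Zfp36 (0.011). With voom Otulin became 0.013 and Lonrf1 -0.036. Leaving out 1 heart gave -0.44 to 0.42 for Fos, -0.15 to 0.052 for Jun, -0.15 to 0.30 for Junb, -0.022 to 0.20 for Atf3, -0.93 to 0.0034 for Egr1, -0.50 to 0.16 for Nr4a1, -0.24 to 0.28 for Ier2, -0.015 to 0.33 for Btg2, -1.50 to 0.37 for Egr2, -0.068 to 0.11 for Lonrf1, -0.13 to 0.083 for Negr1, -0.078 to 0.035 for Otulin and -0.29 to 0.015 for Zfp36. One member did not overlap without control replicate 4, against 0 with it, and 2 of the 8 genes of nearest pattern were shared with the Pearson ranking. With library totals the median log2 fold change over all genes moved by 0.136 in the same direction. The block leaves control replicates 3 and 4 out of the group difference, as their level holds only controls. Its turned signs are therefore no check separate from leaving out control replicate 4. Any other cause of these shifts was not tested. No paired analysis was possible because the labels give no replicate number shared between the groups.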
